A study of Mus musculus with 24 samples.

Results

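Bile acid synthesis in mouse liver was followed through 10 genes, namely 8 enzymes (Cyp7a1, Cyp8b1, Cyp27a1, Cyp7b1, Hsd3b7, Akr1d1, Slc27a5 and Baat) and 2 nuclear receptors (Nr0b2 and Nr1h4). They were chosen by symbol for their known roles, with earlier results of these data known. Each had 1 row among the 15161 genes of the count table. A total of 9 passed the filter on low counts that left 13441 genes for testing. The gene left out was Hsd3b7.

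Bile acids are made from cholesterol in hepatocytes and carry fat and cholesterol through the gut. In the classical route CYP7A1 takes the first and rate-limiting step and CYP8B1 adds the hydroxyl group that makes cholic acid. In the alternative route CYP27A1 oxidises the side chain and CYP7B1 hydroxylates the resulting oxysterols. HSD3B7 and AKR1D1 then remodel the steroid rings, and SLC27A5 and BAAT attach coenzyme A and an amino acid, which in mice is mainly taurine. FXR, encoded by Nr1h4, is the nuclear receptor that senses bile acids. It induces SHP, encoded by Nr0b2, a receptor without a DNA-binding domain that represses Cyp7a1 and Cyp8b1.

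The livers came from male C57BL6/J mice, an inbred strain, at 4 months of age. The 24 RNA-seq libraries formed 4 groups of 6, namely casein MR, casein control, elemental MR and elemental control. MR stands for methionine restriction, at 0.17% methionine in the diet, against 0.86% in the control diets. Elemental diets held free amino acids in place of protein. The library titles name oxidized casein for the MR group and plain casein for its control, while the series text names oxidized casein for both, so in this arm restriction and the oxidation of casein cannot be told apart. The libraries carry 4-digit numbers that the labels do not state to be mice, so the p-values below measure the spread between these samples, which may be technical. Library totals were 13458941 to 20762532 counted reads.

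The promoters of 3 genes are shown because these are the genes called lower with casein MR whose promoter was in the reference table. Each sequence is the 250 bases before the start of the gene, 5′ to 3′ on the strand of the gene, from RefSeq on build GRCm38.p6. Capitals mark the nuclear receptor half-site, read here as TGACCT because it lies on the opposite strand to AGGTCA. The windows are chr1:74713285-74713534 on the plus strand for Cyp27a1, chr6:37529923-37530172 on the plus strand for Akr1d1 and chr10:89506659-89506908 on the minus strand for Nr1h4.
Cyp27a1: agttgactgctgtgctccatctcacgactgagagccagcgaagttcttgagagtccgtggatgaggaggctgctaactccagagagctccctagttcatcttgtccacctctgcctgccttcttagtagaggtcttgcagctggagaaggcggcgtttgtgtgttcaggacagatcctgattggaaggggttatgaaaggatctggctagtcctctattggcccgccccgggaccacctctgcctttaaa
Akr1d1: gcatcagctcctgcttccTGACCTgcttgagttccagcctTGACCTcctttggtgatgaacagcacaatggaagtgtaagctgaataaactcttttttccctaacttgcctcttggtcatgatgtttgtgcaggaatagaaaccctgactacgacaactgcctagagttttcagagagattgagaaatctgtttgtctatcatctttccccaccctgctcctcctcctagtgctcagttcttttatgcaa
Nr1h4: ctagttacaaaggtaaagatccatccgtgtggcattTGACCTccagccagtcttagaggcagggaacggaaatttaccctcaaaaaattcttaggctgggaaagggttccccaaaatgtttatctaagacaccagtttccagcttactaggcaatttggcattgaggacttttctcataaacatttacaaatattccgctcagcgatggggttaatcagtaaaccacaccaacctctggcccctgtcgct
The half-site began at -232 and -210 in Akr1d1 and at -214 in Nr1h4, and it was not in the Cyp27a1 window. A promoter window was matched for 6 of the 10 genes, also for Cyp8b1, Hsd3b7 and Nr0b2. Slc27a5, Cyp7a1, Cyp7b1 and Baat were not among those matched. Motifs were searched on both strands in windows of 300 bases, from 250 before to 50 after the start. AGGTCA was in 16.26% of 32851 such windows. CACGTG, the E-box bound by circadian factors, was in 7.15% of them, and among the 6 genes only Nr0b2 held it, at -195. TCAAGGTCA, the extended half-site of NR5A receptors, was in 0.4231% of windows. An inverted repeat, AGGTCA followed by 1 base of any kind and TGACCT, of the kind bound by FXR with its partner RXR, was in 0.009132%. The D-box TTATGTAA was in 0.9376%. The extended half-site and the inverted repeat both contain AGGTCA. The windows of the 6 genes held no exact match to these 3 motifs. Near matches were not searched for, so other sites for the same factors may be present.

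Levels were taken as counts-per-million (CPM) on scaled library sizes. The scaling factors were 1.06 to 1.14 in casein MR and 0.909 to 0.986 in casein control. They were 1.01 to 1.04 in elemental MR and 0.903 to 0.981 in elemental control. The factors thus differed between diets, and whether groups of CPM values overlap can depend on them. Genes were set against each other per kilobase of exonic length. Cyp8b1 was the most abundant of the 10 on this scale in each group, at 305 ± 78.5 CPM per kb in casein MR, 363 ± 59.8 in casein control, 265 ± 60.1 in elemental MR and 355 ± 74.1 in elemental control (SD, n = 6 each). Slc27a5, Cyp27a1 and Baat came next in each group. In casein MR, Slc27a5 at 170 ± 14.8 and Cyp27a1 at 163 ± 6.75 CPM per kb differed by less than 1 SD. Cyp7a1 ranked 9th in each group, at 15.1 ± 6.46 CPM per kb in casein MR, 18.9 ± 5.21 in casein control, 20.6 ± 7.80 in elemental MR and 20.03 ± 19.1 in elemental control. Without E_C_3401 the elemental control mean of Cyp7a1 was 53.4 CPM, against 83.6 CPM with it. Cyp7b1 was the gene whose rank moved most, 7th in casein MR and 8th in elemental MR, against 5th in both control groups.

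**Figure D1:**
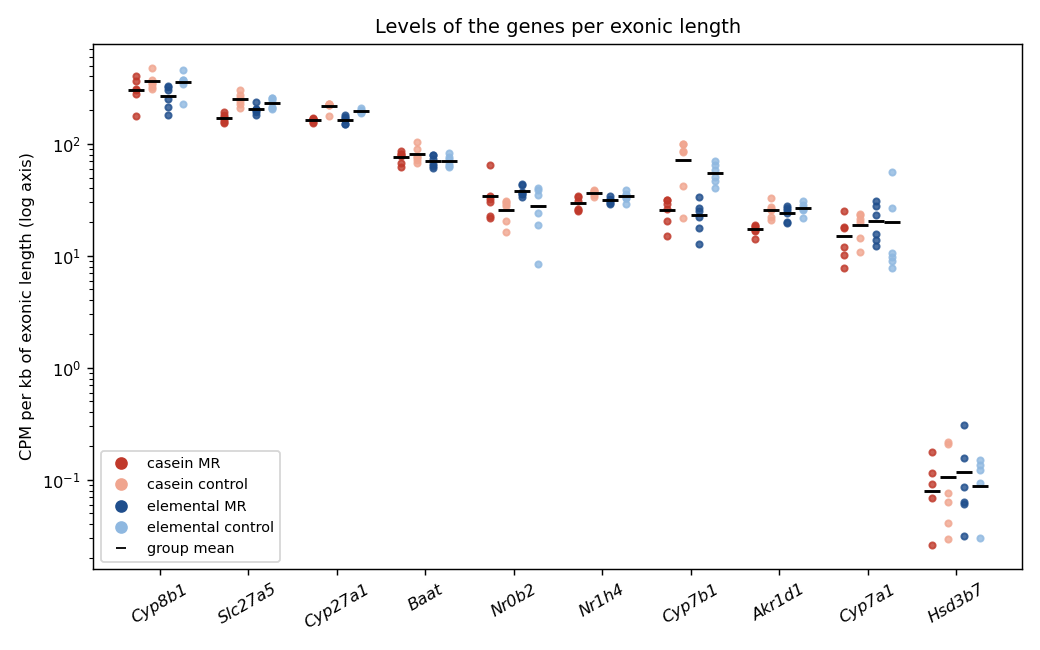
CPM per kilobase of exonic length on a log axis for the 10 genes, ordered by their mean in casein MR, with a point for each library and a bar for each group mean. Cyp8b1 stands highest at 305 CPM per kb in casein MR, and Hsd3b7 lies far below the other genes, at 0.0800 CPM per kb. The 2 libraries with 0 reads of Hsd3b7, C_MR_3433 and E_C_3428, cannot be drawn on this axis.

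Hsd3b7, which remodels the ring of the hydroxylated sterol, was close to the limit of counting. It had 0 to 7 reads per library in casein MR, 1 to 7 in casein control, 1 to 10 in elemental MR and 0 to 5 in elemental control. The sums over 6 libraries were 18, 19, 24 and 17 reads in the same order of groups. In the GENCODE annotation, 83.79% of its exonic bases are shared with Gm49388 on the same strand and 48.82% with 9430064I24Rik on the opposite strand, and neither of these was in the count table. Reads from such shared bases may not have been assigned, so the low level is uncertain. Without the filter on low counts its log2 fold change was -0.41 ± 0.68 with casein MR (SE; adjusted p = 0.744) and 0.40 ± 0.67 with elemental MR (adjusted p = 0.790, edgeR's quasi-likelihood test).

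Casein MR was compared with casein control to measure the effect of restriction in the casein arm. Of the enzymes, Cyp7b1, Akr1d1, Slc27a5 and Cyp27a1 fell, and so did Nr1h4, the gene of FXR. Cyp7a1, Cyp8b1, Baat and Nr0b2 did not pass the test. Thus 5 of 9 genes tested were lower at an adjusted p under 0.05 in edgeR's quasi-likelihood test (p adjusted over all genes by Benjamini and Hochberg's method), where 12.7% of all 13441 genes tested were lower, 10.6% were higher and 23.3% passed in either direction. DESeq2 and limma-voom each called 5 as well. The CPM values of the groups did not overlap for 3 of the 9, against 11.0% of all genes. This lack of overlap depends on the scaling factors, which were higher in casein MR than in casein control. The median log2 fold change of the 9 was -0.32, against 0.01 over all genes.

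In the classical route, Cyp7a1 (ENSMUSG00000028240) had 32.4, 62.0 and 106 CPM in casein MR as lowest, median and highest value, against 45.5, 86.0 and 99.4 CPM in casein control. The highest casein MR library lay above every control library and the groups overlapped widely. Its log2 fold change was -0.32 ± 0.39 (SE; 95% interval -1.13 to 0.48; adjusted p = 0.620), so changes of about that size in either direction were not resolved. Cyp8b1 (ENSMUSG00000050445) had 343, 592 and 787 CPM in casein MR, against 607, 677 and 931 CPM in casein control. Of the casein MR libraries, C_MR_3425 and C_MR_3438 lay inside the control range and the other 4 below it. Cyp8b1 did not pass, with a log2 fold change of -0.25 ± 0.17 (adjusted p = 0.325).

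In the alternative route, Cyp27a1 (ENSMUSG00000026170) had 291, 313 and 325 CPM in casein MR, against 337, 424 and 433 CPM in casein control. Every casein MR library lay below every control library, and the lowest control value, from C_C_3407, stood apart from the other 5. Cyp27a1 fell by 0.41 ± 0.06 on the log2 scale (SE; adjusted p = 8.40e-06). Cyp7b1 (ENSMUSG00000039519) had 32.2, 60.04 and 67.9 CPM in casein MR, against 47.6, 184 and 217 CPM in casein control. The groups overlapped only through C_C_3407, the lowest control library, and C_C_3421 was the next lowest at 90.5 CPM. With a log2 fold change of -1.49 ± 0.28 (adjusted p = 1.69e-04), Cyp7b1 fell to 0.355 of its control level, and without C_C_3407 the log2 value was -1.67. Cyp7b1 is known as a gene with higher expression in male than in female mouse liver.

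Of the genes for ring remodelling and conjugation, Akr1d1 (ENSMUSG00000038641) had 38.0, 47.6 and 51.2 CPM in casein MR, against 56.2, 69.6 and 88.0 CPM in casein control. The groups did not overlap, and C_C_3407, lowest for Cyp7b1 and Cyp27a1, was here the highest control library. Akr1d1 fell by 0.58 ± 0.11 on the log2 scale (SE; adjusted p = 1.47e-04). Slc27a5 (ENSMUSG00000030382), the bile acyl-coenzyme A synthetase, had 360, 393 and 449 CPM in casein MR, against 485, 575 and 703 CPM in casein control. Here too the groups stood clear of each other, with a log2 fold change of -0.56 ± 0.09 (adjusted p = 1.54e-05). Baat (ENSMUSG00000039653), which joins bile acids to taurine or glycine, had 121, 154 and 168 CPM in casein MR, against 130, 148 and 201 CPM in casein control. Its groups overlapped almost fully, and the 95% interval of its log2 fold change of -0.09 ran from -0.30 to 0.12 (adjusted p = 0.591).

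Of the receptors, Nr1h4 (ENSMUSG00000047638) had 58.3, 65.8 and 79.0 CPM in casein MR, against 77.3, 85.8 and 89.5 CPM in casein control. The highest casein MR library, C_MR_3425, lay just inside the control range, and C_MR_3412 lay at its lower edge. The log2 fold change of Nr1h4 was -0.32 ± 0.08 (SE; adjusted p = 0.00263). Nr0b2 (ENSMUSG00000037583) had 24.5, 35.2 and 72.6 CPM in casein MR, against 18.7, 32.0 and 35.0 CPM in casein control. One high library, C_MR_3433, carried much of the difference in means, and the log2 fold change of 0.41 ± 0.27 did not pass (adjusted p = 0.306). Without C_MR_3433 it was 0.13.

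**Figure D2:**
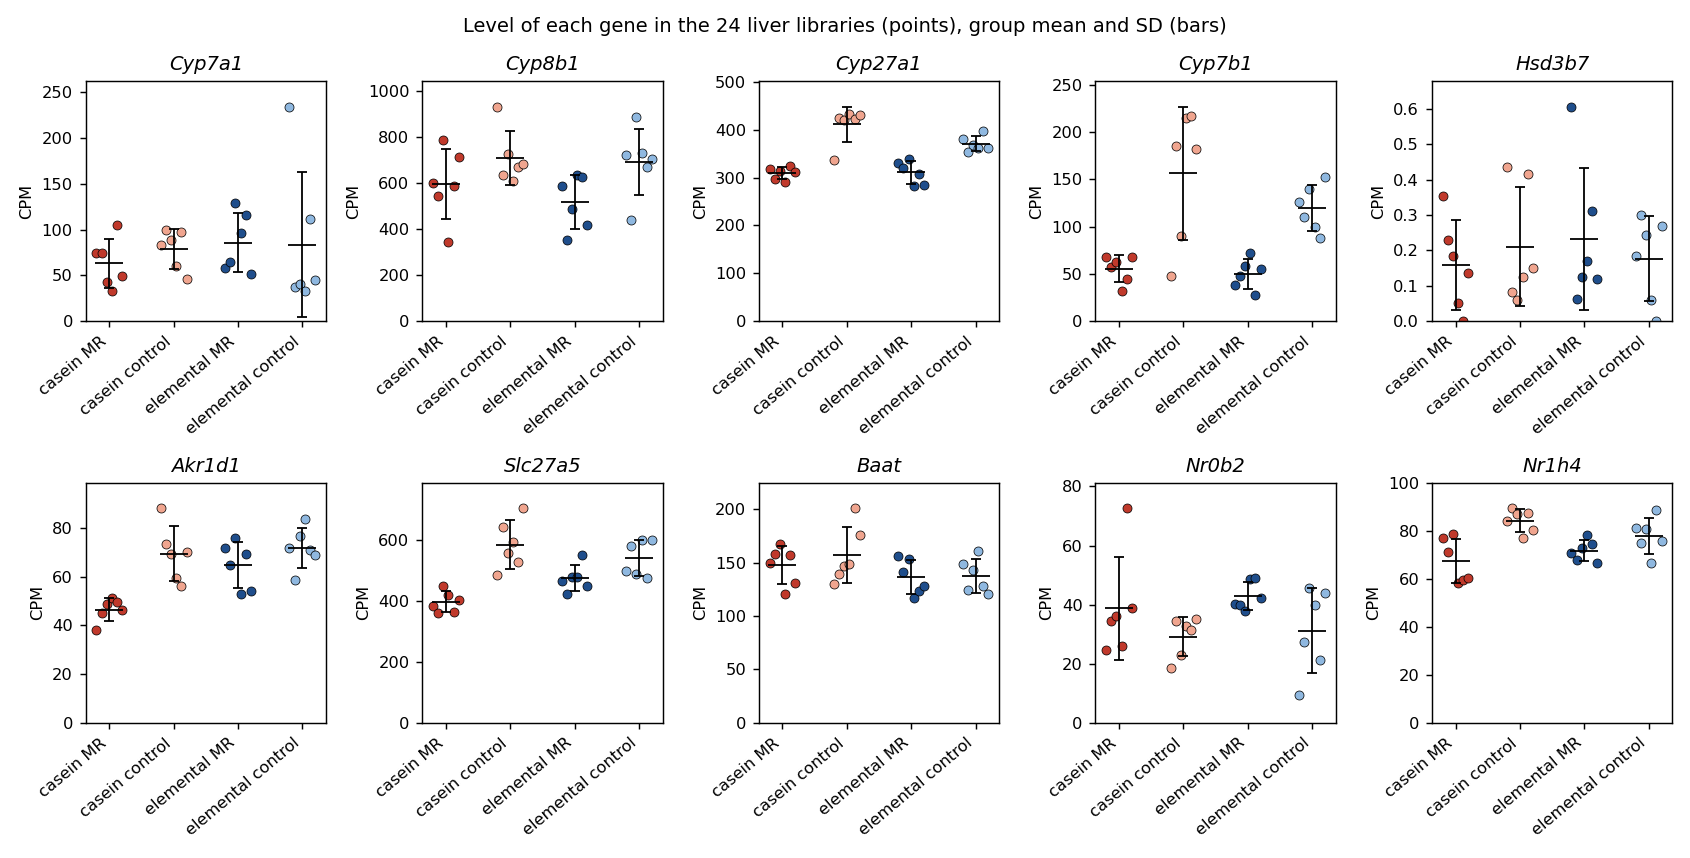
CPM of each gene in the 24 libraries, in 4 groups of 6, with the group mean and SD as bars. Akr1d1, Slc27a5 and Cyp27a1 of casein MR lie below every casein control library, while the Cyp7a1 values of elemental control spread from 32.4 to 234 CPM.

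Markers of hepatocytes moved with the same comparison. Of 9 hepatocyte markers tested, 8 fell with casein MR (median log2 fold change -0.59), and their summed level was 67787 to 74790 CPM in casein MR, against 102707 to 120515 CPM in casein control. The most abundant of them was Alb, and Hnf4a, the one marker of the 9 that did not pass, had a log2 fold change of 0.04. In bulk liver, fewer cells of a type and less RNA per cell cannot be told apart. The part of this shift in the fall of the 5 genes was not tested. Of 8 cholangiocyte markers tested 4 were lower, with summed levels of 42.8 to 64.9 CPM in casein MR against 65.0 to 101 CPM in casein control. The most abundant of these was Sox9, also in the periportal list, at a mean of 17.5 CPM in casein MR and 34.5 CPM in casein control. Of 10 pericentral hepatocyte markers 7 fell, and likewise 7 of 10 periportal ones, with median log2 fold changes of -0.58 and -0.57. Kupffer cell markers summed to 432 to 728 CPM in casein MR, where C_MR_3431 was highest and the next library had 493.5 CPM, against 316 to 554 CPM in casein control. Their median log2 fold change was 0.18, and edgeR's test called 0 of the 10, as did DESeq2 and limma-voom, with 1 gene, Lyz2, at an unadjusted p under 0.05 (0.0263). All 10 skeletal muscle markers were higher, but their sum was 2109 CPM in C_MR_3438 and at most 74.5 CPM in the other casein MR libraries, against 7.71 to 36.8 CPM in casein control. DESeq2 called 1 of these 10 markers and limma-voom 0. Without C_MR_3438 edgeR's test called 0 of them, and 5 of the 9 bile acid genes were still called. Fgf15 and Fabp6, which mark the ileum, were not among the genes analysed.

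Elemental MR was compared with elemental control to measure restriction with free amino acids. The transcripts of Cyp7b1 and Cyp27a1, from the alternative route, were lower here too, while the other 7 genes tested did not pass. So 2 of 9 were lower in edgeR's quasi-likelihood test, where 6.64% of all genes tested were lower, 6.78% were higher and 13.4% passed in either direction. DESeq2 and limma-voom each called 2, and 4 genes had an unadjusted p under 0.05. On the scaled library sizes the groups did not overlap for the same 2 genes, against 6.83% of all genes. The median log2 fold change of the 9 was -0.15, against -0.0028 over all genes. Of the 9 hepatocyte markers 2 fell, Alb among them, with sums of 90104 to 98395 CPM in elemental MR against 112877 to 123488 CPM in elemental control. The 5 intestine and gallbladder markers tested split into 3 higher and 2 lower, with sums of 95.4 to 121 CPM in elemental MR against 118 to 172 CPM in elemental control. Cholangiocyte markers summed to 39.9 to 57.4 CPM in elemental MR against 58.8 to 80.5 CPM in elemental control, with 1 of 8 called lower. Much of that sum was Sox9, also in the periportal list, at a mean of 13.2 CPM in elemental MR and 32.2 CPM in elemental control. Stellate cell and fibroblast markers summed to 331 to 386 CPM in elemental MR against 390 to 471 CPM in elemental control, with 2 of 10 called lower. Pericentral hepatocyte markers summed to 4459 to 5197 CPM in elemental MR against 5281 to 6133 CPM in elemental control, with 3 of 10 called lower. The part of these lists in the result was not tested.

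Cyp7b1 had 27.4, 51.6 and 72.5 CPM in elemental MR as lowest, median and highest value, against 87.7, 118 and 152 CPM in elemental control. No MR library reached the control range, and the log2 fold change was -1.26 ± 0.28 (SE; adjusted p = 0.00246), a fall to 0.418 of the control level. Cyp27a1 had 283, 314 and 340 CPM in elemental MR, against 353, 366 and 397 CPM in elemental control. It was lower in every MR library too, with a log2 fold change of -0.25 ± 0.06 (adjusted p = 0.00508).

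Cyp8b1 had 352, 538 and 635 CPM in elemental MR, against 440, 713 and 886 CPM in elemental control. Only E_C_3417 of the control libraries lay inside the MR range. The log2 fold change of -0.42 ± 0.17 missed the threshold (adjusted p = 0.108), and without E_C_3417 Cyp8b1 was called at -0.52 (adjusted p = 0.0363). Slc27a5 had 421, 472 and 549 CPM in elemental MR, against 474, 538 and 601 CPM in elemental control. Akr1d1 had 52.9, 66.9 and 75.9 CPM in elemental MR, against 58.5, 71.4 and 83.7 CPM in elemental control. Both pairs of groups overlapped, and the log2 fold changes were -0.19 ± 0.09 for Slc27a5 (adjusted p = 0.157) and -0.15 ± 0.10 for Akr1d1 (adjusted p = 0.411). Baat and Nr1h4 had log2 fold changes of -0.01 ± 0.10 (adjusted p = 0.972) and -0.12 ± 0.08 (adjusted p = 0.362).

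Nr0b2 had 37.9, 41.2 and 49.1 CPM in elemental MR, against 9.55, 33.4 and 45.6 CPM in elemental control. The MR libraries were close together, within the upper part of the wide control range or just above it. Its log2 fold change was 0.47 ± 0.27 (adjusted p = 0.284). Cyp7a1 had 51.0, 80.5 and 129 CPM in elemental MR, against 32.4, 42.7 and 234 CPM in elemental control. In elemental control 4 libraries lay below every MR library, E_C_3428 lay within the MR range and E_C_3401 far above it. The log2 fold change was 0.04 ± 0.39 (95% interval -0.76 to 0.84; adjusted p = 0.972). Without E_C_3401 it was 0.68 (adjusted p = 0.190).

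**Figure D3:**
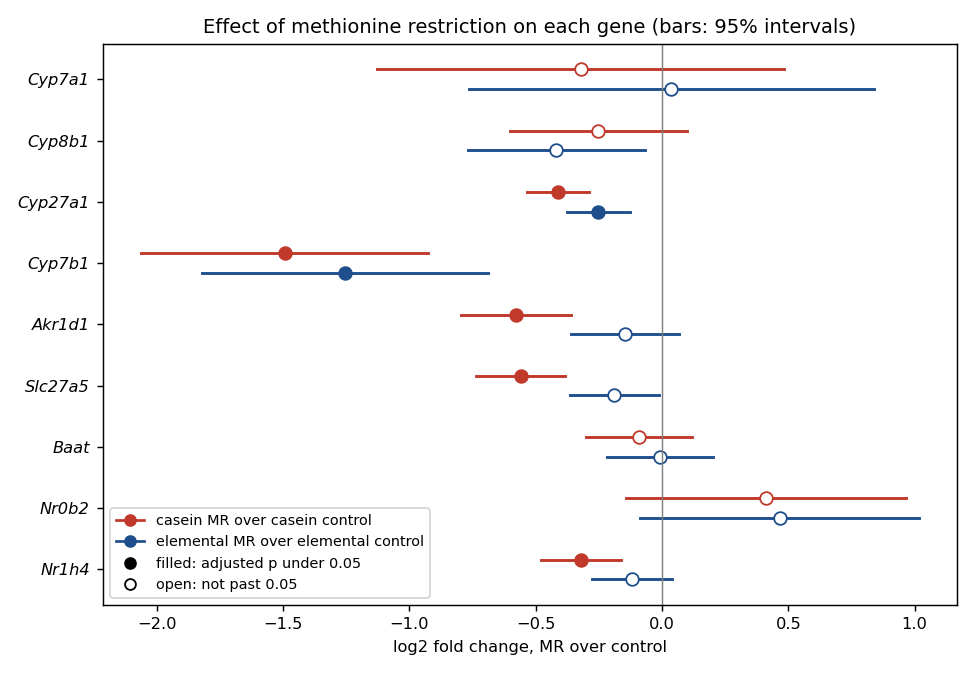
Log2 fold change of the 9 tested genes with casein MR and with elemental MR, each over its own control, with 95% intervals. Cyp7b1 and Cyp27a1 are filled (adjusted p under 0.05) in both comparisons, and Akr1d1, Slc27a5 and Nr1h4 in casein MR, while the intervals of Cyp7a1 and Nr0b2 are wide and cross 0.

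Whether the restriction effects differed was tested as casein MR effect minus elemental MR effect. In edgeR's quasi-likelihood test 0 of 9 genes passed, where 2.34% of all genes tested did. DESeq2 and limma-voom also called 0, and 2 genes had an unadjusted p under 0.05. These were Slc27a5, with a difference of -0.37 ± 0.12 on the log2 scale (SE; 95% interval -0.62 to -0.12; adjusted p = 0.125), and Akr1d1, with -0.43 ± 0.15 (-0.74 to -0.13; adjusted p = 0.158). For Cyp7b1 the difference was -0.24 and its interval, -1.03 to 0.55, left room for sizeable differences in either direction. For Cyp27a1 it was -0.16 (-0.34 to 0.02; adjusted p = 0.468), and for Nr1h4 -0.20 (-0.43 to 0.02; adjusted p = 0.468).

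Between the MR diets, Akr1d1 was lower in casein MR than in elemental MR. The 38.0 to 51.2 CPM in casein MR lay below the 52.9 to 75.9 CPM in elemental MR without overlap (log2 fold change -0.48 ± 0.11, SE; adjusted p = 0.00432). It was the 1 of 9 genes called, where 6.50% of all genes tested were and 3.78% were lower, and the 1 of 9 without overlap, against 4.25% of all genes. Slc27a5 had 396 ± 34.4 CPM in casein MR and 474 ± 42.7 CPM in elemental MR (SD, n = 6 each), a log2 fold change of -0.26 ± 0.09 (adjusted p = 0.0731). Cyp27a1 was nearly level between the MR diets, at 309 ± 12.8 CPM in casein MR and 311 ± 23.6 CPM in elemental MR, with a 95% interval of the log2 fold change of -0.13 to 0.11. Of the hepatocyte markers 5 of 9 were lower in casein MR here, as were 6 of 10 periportal and 3 of 10 pericentral ones, and 10 of 10 skeletal muscle markers were higher. The muscle sum was 2109 CPM in C_MR_3438 and at most 74.5 CPM in the other casein MR libraries. Its median was 10.2 CPM in casein MR and 10.2 CPM in elemental MR. The part of those markers in the Akr1d1 difference was not tested.

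Between the control diets, casein over elemental, 0 of 9 genes passed in edgeR's test, where 0.104% of all genes tested did, and the groups overlapped for all 9, against 0.655% of all genes without overlap. DESeq2 and limma-voom called 0 as well, and 1 gene, Cyp27a1, had an unadjusted p under 0.05. Cyp27a1 had 412 ± 36.9 CPM in casein control and 371 ± 15.9 CPM in elemental control (SD, n = 6 each; log2 fold change 0.15 ± 0.06, adjusted p = 0.325). Cyp7b1 had 156 ± 70.5 CPM in casein control and 119 ± 24.5 CPM in elemental control (0.39 ± 0.27, adjusted p = 0.606).

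The genes differed in how much they varied between libraries of 1 diet. The coefficient of variation of Cyp7a1 was 42.7% in casein MR, 27.5% in casein control, 38.0% in elemental MR and 95.2% in elemental control. For Cyp27a1 it was 4.13%, 8.97%, 7.59% and 4.29% in the same groups. Nr0b2 varied by 45.3% in casein MR and 45.9% in elemental control, and by 11.1% in elemental MR. The library highest in Cyp7a1, E_C_3401 at 234 CPM, was also the lowest in Nr0b2, at 9.55 CPM. In casein MR the library highest in Cyp7a1, C_MR_3433 at 106 CPM, was the highest in Nr0b2, at 72.6 CPM.

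Within groups, Cyp7a1 was related to Nr0b2, Cyp8b1 and Nr1h4 by exact permutation tests, 12 in all over 6 libraries each. None passed after Benjamini-Hochberg adjustment, with lowest adjusted p of 0.411 for Pearson's r and 0.200 for Spearman's rho. In elemental control Cyp7a1 and Nr0b2 had r = -0.92 (exact p = 0.0472) and rho = -0.54 (exact p = 0.297). Without the 2 libraries farthest from the median in Cyp7a1, r was 0.35 over the 4 left. The same step took r of Cyp7a1 and Nr0b2 from -0.34 to 0.999 in casein control and from 0.28 to 0.965 in elemental MR. An r over 4 libraries is thus too unstable to tell what the relation rested on. In casein MR r was 0.58 (exact p = 0.211) and rho was 0.26 (exact p = 0.658), and r was -0.67 without the 2 farthest libraries. For Cyp7a1 and Nr1h4 the highest rho was in casein control, at 0.94 (exact p = 0.0167, adjusted p = 0.200), with r = 0.86 (exact p = 0.0694), and r was 0.91 without the 2 farthest libraries. In elemental control this pair had r = 0.66 (exact p = 0.139) and rho = 0.89 (exact p = 0.0333), and in elemental MR r = 0.75 (exact p = 0.103) and rho = 0.71 (exact p = 0.136). In casein MR it had r = 0.08 (exact p = 0.892) and rho = 0.09 (exact p = 0.919).

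**Figure D4:**
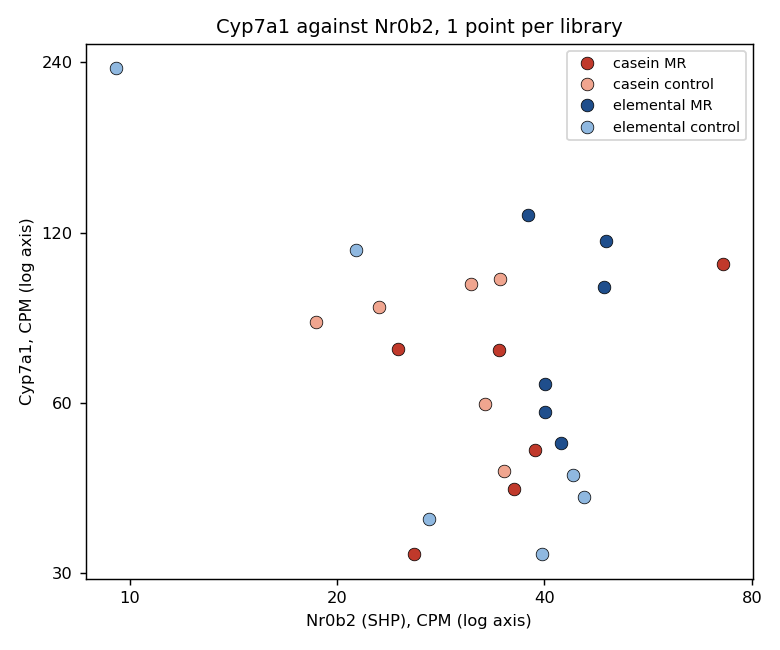
CPM of Cyp7a1 against CPM of Nr0b2, both on log axes, with a point for each of 24 libraries. E_C_3401 stands alone at 234 CPM of Cyp7a1 and 9.55 CPM of Nr0b2, and C_MR_3433 lies farthest to the right at 72.6 CPM of Nr0b2.

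Likeness to single genes was described by Pearson's r of log2 CPM over the 24 libraries after subtracting group means, among 10051 genes. The libraries share their scaling and the genes were searched for high values, so no test is given. The 5 genes most like Cyp7a1 were Hspb11 (r = 0.77), Tor1a, Azin1, Lztr1 and Borcs7. Those most like Cyp8b1 were Rfesd (r = 0.82), Pex5, Washc2, Ahcyl1 and Tpmt. Those most like Nr0b2 were Ndufb9 (r = 0.72), Cep135, Zfp36, Rab3a and Phykpl. Among the 9 genes tested, the lowest r was -0.60, for Cyp7b1 and Akr1d1, and the highest was 0.54, for Cyp27a1 and Baat. Of the casein control libraries, C_C_3407 was lowest in Cyp7b1, Cyp27a1 and Baat and highest in Akr1d1. The part of that library in these values of r was not tested. Cyp7a1 had 0.45 with Nr1h4 and -0.44 with Nr0b2. By group, r of Cyp7a1 and Nr0b2 ran from -0.92 in elemental control, where E_C_3401 stood apart, to 0.58 in casein MR.

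Genes listed as other enzymes of the pathway, a list that also held the peroxisomal thiolase Acaa1b, moved in both directions. Of 14 tested, 5 rose and 7 fell with casein MR, where 10.6% of all genes tested rose and 12.7% fell. With elemental MR 4 rose and 4 fell, where 6.78% of all genes tested rose and 6.64% fell. Without E_MR_3405 the count of the 14 that fell with elemental MR was 2. Their median log2 fold change was -0.16 with casein MR, against 0.01 over all genes, and 0.04 with elemental MR, against -0.0028. Cyp39a1, which hydroxylates oxysterols made in the brain and other tissues, rose most of the enzymes. It averaged 38.9 ± 10.5 CPM in casein MR and 6.00 ± 1.91 CPM in casein control (SD, n = 6 each; log2 fold change 2.69 ± 0.19, adjusted p = 3.55e-11). It averaged 45.7 ± 3.91 CPM in elemental MR and 9.59 ± 2.62 CPM in elemental control (2.25 ± 0.18, adjusted p = 1.60e-09).

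The restriction effects of 3 enzymes of this list differed between the protein sources. Cyp2c70, which makes the muricholic acids of mice, fell to 90.8 ± 24.7 CPM in casein MR, against 315 ± 94.5 CPM in casein control (log2 fold change -1.80 ± 0.19). It had 197 ± 43.4 CPM in elemental MR and 244 ± 21.3 CPM in elemental control, which did not pass (-0.31 ± 0.18, adjusted p = 0.290). The difference between these effects was -1.48 ± 0.26 (adjusted p = 0.00149). Cyp2a12, a bile acid hydroxylase of mice, moved in opposite directions, falling to 409 ± 54.2 CPM in casein MR against 525.9 ± 60.3 CPM in casein control, and rising to 584 ± 25.8 CPM in elemental MR against 457 ± 81.9 CPM in elemental control. Its difference was -0.72 ± 0.14 (adjusted p = 0.00377). Acaa1b, a peroxisomal thiolase, rose by 1.05 ± 0.12 with casein MR and by 0.37 ± 0.12 with elemental MR, and the difference of 0.68 ± 0.17 passed (adjusted p = 0.0267). The rise of Acaa1b with elemental MR was called in 15 of 24 fits that left out 1 library, with adjusted p of up to 0.103.

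Several enzymes changed less. Akr1c6, a hydroxysteroid dehydrogenase, fell by 0.46 on the log2 scale with casein MR and by 0.25 with elemental MR. Without E_MR_3405 the fall of Akr1c6 with elemental MR was not called. Scp2, whose thiolase form shortens the side chain, fell by 0.37 and by 0.38, and Sult2a8, a bile acid sulfotransferase of mouse liver, fell by 0.72 and by 0.58 in the same order. Acox2, the peroxisomal oxidase of the side chain, rose by 0.30 with casein MR and by 0.28 with elemental MR.

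Of 14 genes tested from a list of bile acid transporters, which also held the phospholipid carrier Abcb4, 3 rose and 5 fell with casein MR. With elemental MR 6 rose and 3 fell (median log2 fold changes -0.06 with casein MR and 0.27 with elemental MR). Over all genes tested 10.6% rose and 12.7% fell with casein MR, and 6.78% rose and 6.64% fell with elemental MR. The 3 that fell with elemental MR were down to 1 without E_MR_3405 or without E_MR_3423. Abcc4, an exporter of the sinusoidal membrane, averaged 14.9 ± 2.24 CPM in casein MR and 2.73 ± 0.42 CPM in casein control (SD, n = 6 each; log2 fold change 2.45 ± 0.23, adjusted p = 9.10e-09). It averaged 7.03 ± 3.52 CPM in elemental MR and 2.10 ± 0.44 CPM in elemental control (1.73 ± 0.24, adjusted p = 1.46e-05). Abcc3, another sinusoidal exporter, rose by 0.67 with casein MR and by 0.45 with elemental MR, and Abcb4, which moves phospholipid into bile, rose by 0.50 and by 0.36 in the same order.

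The restriction effects of 3 of the 14 transporters differed between the protein sources. Slc10a1, the sodium-dependent uptake transporter NTCP, fell to 256 ± 17.98 CPM in casein MR against 437 ± 35.9 CPM in casein control, and to 316 ± 22.3 CPM in elemental MR against 379 ± 53.4 CPM in elemental control. Its log2 fold changes were -0.77 ± 0.08 and -0.26 ± 0.08, and their difference was -0.51 ± 0.11 (adjusted p = 0.00866). The fall of Slc10a1 with elemental MR was called in 19 of 24 fits that left out 1 library, with adjusted p of up to 0.0790. Slco2b1, an organic anion uptake transporter, fell by 0.79 and by 0.32 in the same order (difference -0.47 ± 0.12, adjusted p = 0.0314). Abcb11, the bile salt export pump, had 296 ± 28.7 CPM in casein MR and 290 ± 33.7 CPM in casein control (0.03 ± 0.08, adjusted p = 0.823), and rose to 451 ± 45.3 CPM in elemental MR against 326 ± 24.01 CPM in elemental control (0.47 ± 0.08, adjusted p = 2.13e-04). The difference for Abcb11 was -0.44 ± 0.11 (adjusted p = 0.0382). With upper quartile scaling it did not pass (adjusted p = 0.0562). Of the 24 fits that left out 1 library, the Abcb11 difference passed in 7, that of Slco2b1 in 12 and that of Acaa1b in 18, whereas those of Slc10a1, Cyp2c70 and Cyp2a12 passed in all 24.

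**Figure D5:**
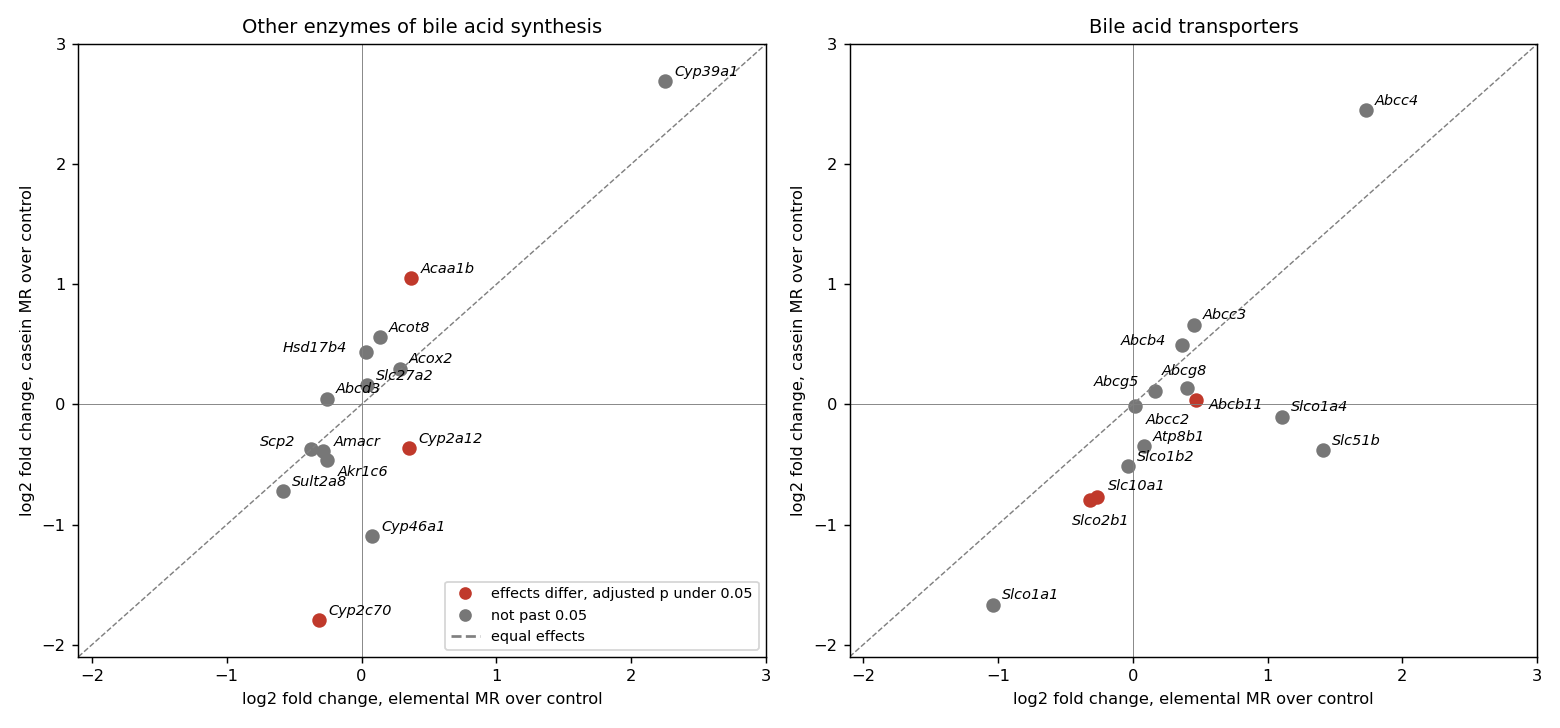
Log2 fold change with casein MR against that with elemental MR, 1 point per gene, with a dashed line where the effects are equal. On the left are 14 genes of the list of other enzymes of bile acid synthesis and on the right 14 genes of the list of bile acid transporters. Red points, whose effects differ at an adjusted p under 0.05, are Cyp2c70, Cyp2a12 and Acaa1b on the left and Slc10a1, Slco2b1 and Abcb11 on the right.

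Of 23 regulators of the pathway, 4 rose and 5 fell with casein MR, and 5 rose with elemental MR, or 8 with limma-voom. Over all genes tested 10.6% rose and 12.7% fell with casein MR, and 6.78% rose with elemental MR. The median log2 fold changes of the regulators, 0.04 and 0.02, were close to 0.01 and -0.0028 over all genes. Mafg, a repressor of bile acid synthesis genes that FXR induces in mice, rose by 0.48 ± 0.09 on the log2 scale with casein MR (SE; adjusted p = 3.39e-04) and by 0.40 ± 0.09 with elemental MR (adjusted p = 0.00486). Ncor1, a corepressor, rose by 0.26 and by 0.30 in the same order. Fgfr4, the receptor for the gut hormone FGF15 that represses Cyp7a1, fell by 0.33 with casein MR, at 10.9 ± 0.693 CPM in casein MR against 13.7 ± 1.51 CPM in casein control, and had -0.22 ± 0.08 with elemental MR (adjusted p = 0.0637). Nr1h3, the sterol sensor LXR alpha, fell by 0.22 with casein MR (adjusted p = 0.00683) and had -0.04 with elemental MR (adjusted p = 0.755). Nr1i3, the xenobiotic receptor CAR, and Nr1h2, which encodes LXR beta, rose by 0.41 and 0.26 with elemental MR (adjusted p = 0.0154 for Nr1i3 and 0.0180 for Nr1h2).

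Circadian genes and male-biased genes were counted because Cyp7a1 is known to cycle over the day and Cyp7b1 to be male-biased. Of 18 circadian genes tested, 10 fell with casein MR, or 6 without C_C_3413, and 8 with elemental MR, or 5 without E_MR_3405 (medians -0.47 and -0.36). Over all genes tested 12.7% fell with casein MR and 6.64% with elemental MR. Bhlhe40, a repressor of clock-driven transcription, fell to 24.2 ± 6.20 CPM in casein MR against 51.1 ± 18.1 CPM in casein control, and to 25.9 ± 3.96 CPM in elemental MR against 41.4 ± 7.76 CPM in elemental control. The core clock gene Per2 fell by 1.74 and by 1.33 on the log2 scale, and the D-box factor Hlf by 0.47 and by 0.33, with casein MR and elemental MR in that order. The fall of Hlf with elemental MR was called in 19 of 24 fits that left out 1 library, with adjusted p of up to 0.0958. Nr1d1, the clock repressor REV-ERB alpha, fell by 0.54 and by 0.57, and Bhlhe41, a relative of Bhlhe40, by 2.25 and by 3.48. Without E_MR_3405 the fall of Bhlhe40 with elemental MR was not called, nor was that of Nr1d1 with casein MR without C_C_3413. The time of day of collection is not in the labels, and the part of these genes in the bile acid results was not tested. Of 23 male-biased genes, 20 fell in each MR comparison (medians -2.22 and -1.66), against the same 12.7% and 6.64% of all genes. Serpina12, which encodes the serpin vaspin, fell to 4.94 ± 1.78 CPM in casein MR against 177 ± 58.7 CPM in casein control, and to 12.8 ± 4.41 CPM in elemental MR against 134 ± 41.2 CPM in elemental control. C6, Susd4, Selenbp2 and Cyp4a12b also fell in both. The part of this shift in the fall of Cyp7b1 was not tested.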

How the data were processed

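RNA-seq of 24 mouse liver libraries was analysed. The authors deposited a table of read counts per Ensembl gene, for 15161 genes, and a normalized table whose signal was checked to equal the deposited counts divided by 1 size factor per library (0.745 to 1.32). Only the counts were tested. For the aligner, the counting tool, the strand and the build, the record is the same: not given in the sources used here. No per-sample column was left unused (0), and 0 pairs of libraries within groups were identical.

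Symbols came from the deposited table and, for 2119 genes, from a reference table. In R 4.3.3, edgeR 4.0.16 removed low counts with filterByExpr (13441 genes and 99.9% of reads kept), scaled libraries by TMM (trimmed mean of M values) and fitted all 24 libraries with a mean per group. Quasi-likelihood tests were adjusted over all genes tested by Benjamini and Hochberg's method, and genes under 0.05 were called. A standard error is the log2 fold change over the square root of its F statistic. Exonic lengths were unions of exons in GENCODE vM21. Python 3.11.15 with scipy 1.17.1 gave the exact permutation tests. The code was tested on simulated counts.

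The 10 genes and all lists were chosen with earlier results of these data known. Named from each of 5 lists were the 4 genes with the smallest p in each MR comparison and any gene whose MR effects differed, and for Cyp7a1, Cyp8b1 and Nr0b2 the 5 most alike genes whose mean log2 CPM was 1 or more. One gene that this rule names is not reported here. Other settings tried were scaling by upper quartile or by DESeq2 size factors, no filter, a filter of 1 CPM, the DESeq2 1.42.0 Wald test, limma-voom (limma 3.58.1) with quality weights, the compared groups alone and leaving out each library. Their use for the genes of the lists was added after the data were seen.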

Additional observations from a re-analysis of the deposited data

Results flagged for a closer look

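In each group the highest and lowest library of each of the 10 genes were checked for a wide gap to the others. Over 40 groups of values 3 stood out, where chance marks about 1 in 20 groups. Cyp8b1 was high in C_C_3407, at 931 CPM, and Cyp27a1 was low in the same library, at 337 CPM. Nr0b2 was high in C_MR_3433, at 72.6 CPM.

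The tests of the difference between the MR effects (casein minus elemental, log2) singled out 9 genes of the lists. Among enzymes these were Cyp2c70 (-1.48), Cyp2a12 (-0.72) and Acaa1b (0.68), and among transporters Slc10a1 (-0.51), Slco2b1 (-0.47) and Abcb11 (-0.44). Among male-biased genes they were Hsd3b5 (-3.42), Serpina12 (-1.76) and Cspg5 (3.49). Hsd3b5 averaged 2.23 ± 2.03 CPM in casein MR and 205 ± 88.4 CPM in casein control, and 19.9 ± 28.2 CPM in elemental MR and 171 ± 41.8 CPM in elemental control (SD, n = 6 each). Its difference was not called by limma-voom (-3.02, adjusted p = 0.156), nor without E_MR_3420 or without C_MR_3419, with adjusted p of up to 0.0693. Cspg5 was at 2.96 ± 2.23 CPM in casein MR and 1.02 ± 0.550 CPM in casein control, and at 0.632 ± 0.325 CPM in elemental MR and 2.52 ± 0.961 CPM in elemental control, so its values rest on few reads.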

How the results depend on the processing

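The count of bile acid genes called stayed at 5 with casein MR under every alternative and left-out library, at 0 for the difference and for the control diets, and at 2 with elemental MR, or 3 without E_C_3417. Between the MR diets it was 1, or 2 with limma-voom (Slc27a5, -0.26) and without C_MR_3425 (Slc27a5, -0.30), a range of 1 to 2 over left-out libraries. Genes called between the control diets were 14, against 90 with DESeq2 (47 higher, 43 lower), 3 with limma-voom and 7 with the compared groups alone. Leaving out a library gave 5 to 33, with 33 without C_C_3407, 5 to 9 without C_C_3413, C_C_3421, C_C_3429, C_C_3436, C_MR_3412, E_C_3417, E_C_3418, E_C_3428 or E_MR_3424. The cause was not tested.

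Of 1386 recomputed values of single genes, 37 turned sign, and no call was lost (0). For the control diets limma-voom gave 0.30 for Cyp7a1 and 0.045 for Nr0b2, and between the MR diets the compared groups alone gave 0.0053 for Cyp27a1. Over left-out libraries uncalled values crossed 0 as follows. With casein MR, Baat ran from -0.13 to 0.00065. With elemental MR, Baat ran from -0.050 to 0.042 and Cyp7a1 from -0.13 to 0.68. In the difference, Baat ran from -0.13 to 0.0099 and Nr0b2 from -0.33 to 0.13. Between the control diets, Akr1d1 ran from -0.13 to 0.0051, Cyp7a1 from -0.25 to 0.56, Cyp8b1 from -0.066 to 0.12 and Nr0b2 from -0.29 to 0.034. Between the MR diets, Cyp27a1 ran from -0.036 to 0.016. Of 280 recomputed group means 0 moved by 1 SD. Most of them left out 1 of 6 libraries, which cannot move a mean by 1 SD of the same 6. The count therefore does not measure stability, and E_C_3401 also sets the SD of Cyp7a1 in elemental control.

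Of 2127 recomputed values of listed genes called in the text, 63 lost the call and 0 turned sign. No paired analysis was possible because the libraries carry no shared numbers. Hsd3b7 had too few reads to test, and for Cyp7a1 and Nr0b2 the spread between libraries sets the width of the intervals.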
